A study of Mus musculus with 25 samples.

Results

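Astrocytes from the cortex of C57BL/6J mice were grown with an inhibitor of the epidermal growth factor receptor (EGFR) or with DMSO, its solvent control, and their RNA was sequenced. The cells had been purified by immunopanning, in which an antibody to the surface protein HepaCAM holds astrocytes on a dish, and the inhibitor went into the medium on day 2 in vitro. The experiment is made of 6 libraries picked by their labels, 3 per group, out of 25 in the series. The others come from a P53 inhibitor experiment with its own DMSO control, a comparison of cells with and without the EGFR ligand HBEGF, and a time course of culture. The name and dose of the EGFR inhibitor, the day of harvest, the age of the mice and the makeup of the medium, which both groups share, are not stated in the labels used here. Nor do the labels say whether the 3 libraries of a group came from separate mice or cultures. The p-values below therefore measure only spread between libraries of the same group, which may be technical.

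EGFR is a receptor tyrosine kinase at the cell surface that binds EGF, TGF-alpha, HBEGF and related ligands. The active receptor switches on RAS, which starts the kinase chain RAF, MEK and ERK, and in parallel the PI3K and AKT kinases. ERK turns on immediate early genes, ETS transcription factors and D cyclins, and also the genes of its own inhibitors (Sprouty, Spred and DUSP proteins), so these inhibitors serve as a readout of the pathway. AKT keeps the FOXO transcription factors out of the nucleus and, with mTORC1, supports the making of sterols, fatty acids and ribosomes. In neural progenitors and young astrocytes EGFR signalling is known for its part in division and survival.

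The 3 DMSO libraries held 6324615, 6663159 and 8220799 reads counted to genes, and the 3 inhibitor libraries 5820638, 6001173 and 5766602. The ribosomal RNA of mitochondria took 18.4 to 18.8% of the reads with DMSO and 22.3 to 25.4% with the inhibitor. The correlation of log2 values was 0.8875 to 0.9392 between libraries of a group and 0.7976 to 0.824 between groups, and no library stood apart by this measure. For some single genes DMSO replicate 1 lay well above the other DMSO libraries, as for Hbegf, Dusp6, Arc and Cyr61 below. Of 9 astrocyte markers none was at 0, and their summed level was 2630 to 2860 CPM (reads of a gene scaled to the total of its library) with DMSO and 5700 to 5760 with the inhibitor, so the cells carried the markers of their label.

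Values are RPKM, reads scaled per kilobase and by library total, where the kilobases are those of the whole gene with its introns. Levels of different genes are therefore not compared. Log2 changes are differences of log2(RPKM + 1), inhibitor minus DMSO, ± SE from limma, and understate the change of genes of low RPKM. Limma estimated the spread from all 25 libraries, each of the 9 groups with its own mean. Its SE and p-values thus rest partly on the other experiments (16 residual degrees of freedom, against 4 with the 6 libraries alone). Folds are ratios of the mean RPKM of the groups (n = 3 each). Genes with an adjusted p below 0.05 are called. Of 13850 genes tested, 5337 were called (38.5%), 2261 of them higher (16.3%) and 3076 lower (22.2%) with the inhibitor. The libraries of the groups did not overlap for 6961 genes (50.3%). Testing needed at least 1 RPKM in at least 2 of the 25 libraries. Only through the inhibitor libraries did 474 genes meet this, 220 of them called higher, and 169 met it only through the DMSO libraries. Calls of such genes are a description only. The receptors coupled to G proteins hold 2 of the first kind and the mitosis list 2 of the second. Other lists hold at most 1 of each kind. The median log2 change was -0.02 over all tested genes, but -0.27 over the 2354 genes that average 5 RPKM or more. The libraries were also scaled by median of ratios on 2268 genes, those above 0 in all 25 libraries with a mean of at least 5 RPKM over the 25. This moved the 2 medians to 0.16 and 0.04 and gave 3940 genes higher and 1713 lower, that is 28.4% and 12.4% of all. The calls of genes with changes of about this size thus depend on the scaling. "The other scaling" below means this one, which was added after the data were seen. Because long genes have low RPKM and often fail the filter, reads recovered from RPKM and gene span were also tested, with voom, limma's model for counts. Voom was run on the 6 libraries alone. It tested 15403 genes and called 55.3%, 27.7% higher and 27.6% lower (median log2 change 0.02). In bulk RNA, fewer cells of a type and less of an RNA per cell cannot be told apart.

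**Figure D1:**
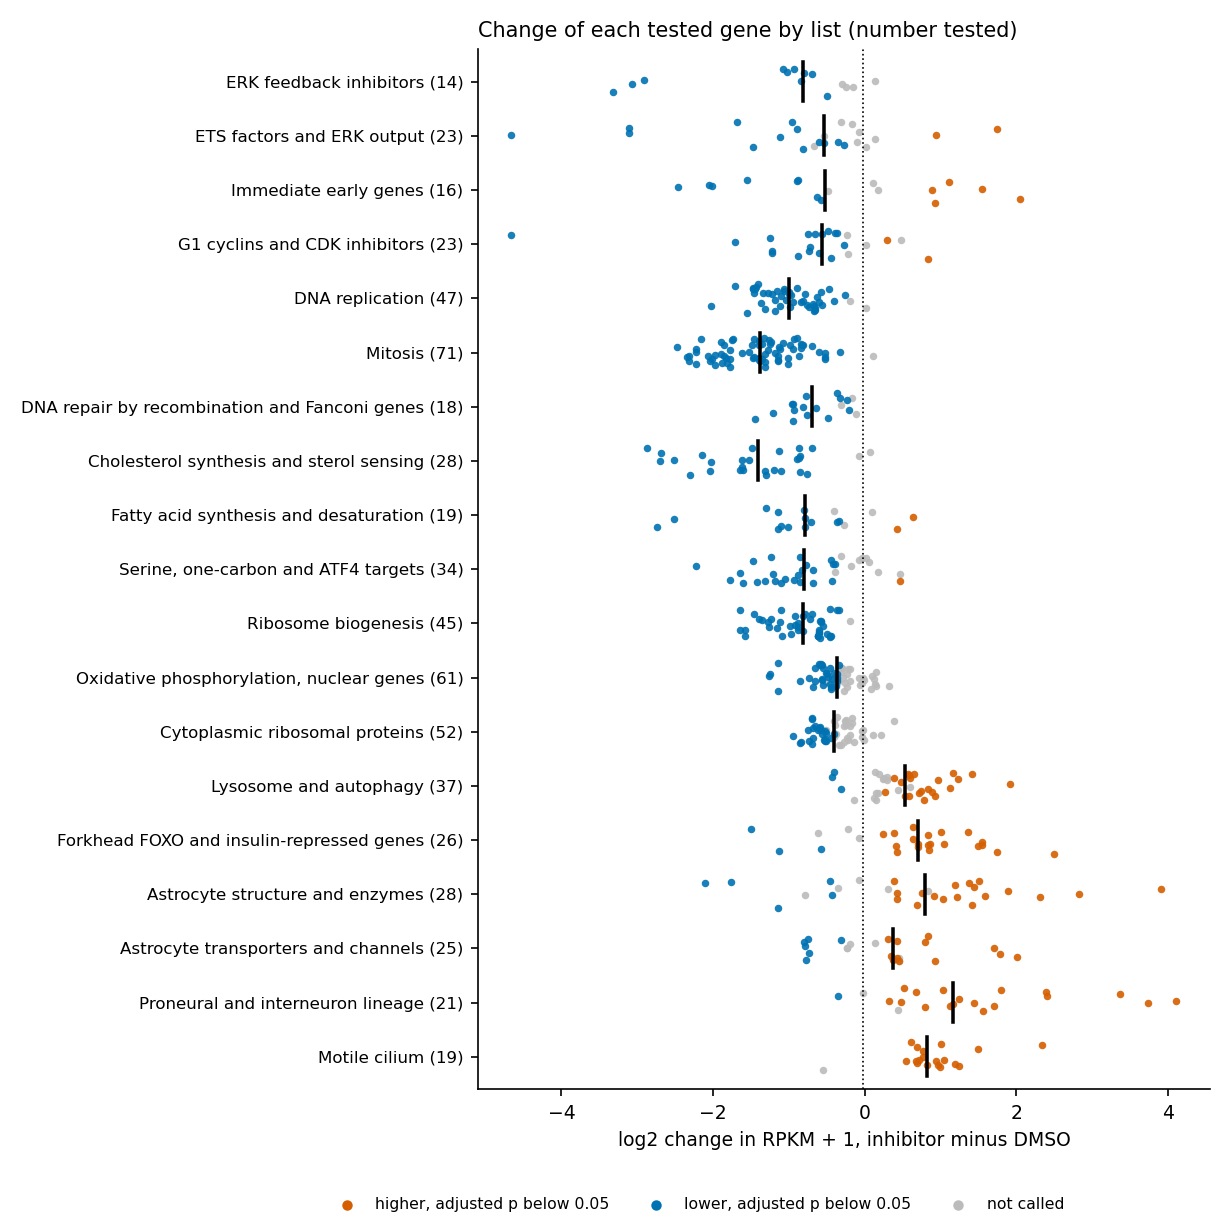
Log2 change in RPKM + 1 (x axis, inhibitor minus DMSO) of each tested gene in 19 lists, with the number tested in brackets. Points are genes (orange called higher, blue called lower, grey not called), the thick bar is the list's median and the dotted line the median of all 13850 genes; mitosis (median -1.38) and cholesterol synthesis (-1.40) lie lowest and the proneural list (1.16) highest.

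The pathway itself was examined first. Of 18 genes of EGF receptors, ligands and their direct regulators only 5 passed the filter on low values, none higher and 3 lower. On recovered reads voom tested 12 of them, 5 higher and 2 lower (median 0.28). Among those under the filter, named after their values were seen, the receptor gene Erbb4 took 35.7, 23.7 and 19.3 CPM with DMSO and 49.8 to 62.6 with the inhibitor (2.19-fold, voom adjusted p = 3.26e-06). Nrg1, which encodes neuregulin, a ligand of ERBB3 and ERBB4, rose 2.08-fold (voom adjusted p = 1.29e-07). Egfr stood at 5.86, 6.68 and 7.10 RPKM with DMSO and at 3.59, 3.38 and 3.54 with the inhibitor, groups that do not overlap, and fell 1.87-fold (log2 change -0.74 ± 0.16, limma adjusted p = 0.00111). Under the scaling on genes of at least 5 RPKM the change of Egfr was -0.46 (limma adjusted p = 0.0555). Lrig1, a membrane protein that promotes the breakdown of ErbB receptors, fell 2.64-fold (-0.85 ± 0.08, limma adjusted p = 5.39e-07). The receptor gene Erbb2 (0.995, 1.05 and 0.795 against 1.26, 1.39 and 1.15 RPKM) was not called, and Errfi1, which encodes a protein that binds and blocks the EGFR kinase, was at 1.16 RPKM in both groups. Hbegf was lower in every inhibitor library (1.25, 0.995 and 0.621 RPKM), yet DMSO replicate 1 alone, at 15.01 RPKM against 3.09 and 3.24, makes most of its 7.45-fold difference (limma adjusted p = 0.00636). Without that library its log2 change was -1.10 (limma adjusted p = 0.0485), against -1.75 with it, and in a fit of the 6 libraries alone the limma adjusted p was 0.0684.

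Of 19 tested genes of the RAS to ERK cascade, 1 was higher and 8 were lower (median -0.23). Hras fell 2.04-fold. The MEK gene Map2k1 fell 1.62-fold, the kinase gene Rps6ka3, whose product RSK2 is activated by ERK, 2.44-fold, and Cbl, the ubiquitin ligase that sends EGFR for degradation, 2.16-fold. The adaptor gene Gab1 rose 1.37-fold (0.32 ± 0.10, limma adjusted p = 0.0178). Under the scaling on genes of at least 5 RPKM the cascade gave 4 higher and 4 lower with a median of 0.05, and Map2k1 was no longer called (limma adjusted p = 0.122). The call of Gab1 was lost without DMSO replicate 1 (limma adjusted p = 0.0873), without inhibitor replicate 1 (0.0577) and without inhibitor replicate 2 (0.0533).

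The inhibitors that ERK induces were lower, with none of 14 tested genes higher and 10 lower (median -0.82, and 1 and 10 under the other scaling). Dusp6, a phosphatase specific for ERK, read 35.48, 18.74 and 22.35 RPKM with DMSO and 1.29, 1.64 and 1.79 with the inhibitor. It fell 16.2-fold (-3.32 ± 0.31, limma adjusted p = 3.65e-07). The Sprouty genes, whose products block RAS activation, differed in size of change. Spry1 went from 12.4, 11.51 and 10.95 RPKM to 0.517, 0.501 and 0.484, a 23.2-fold fall. Spry4 fell 14.5-fold, while Spry2 went from 33.08, 31.77 and 22.01 to 13.18, 14.63 and 12.95 RPKM, a 2.13-fold fall (-1.02 ± 0.28, limma adjusted p = 0.0072). The libraries of the groups overlapped for none of these Sprouty genes. Among the Spred genes, which block RAF, Spred1 fell 1.62-fold, Spred2 3.06-fold and Spred3 3.07-fold, and the RAS GTPase-activating gene Rasa3 fell 3.18-fold.

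Of 23 tested ETS factors and other ERK output genes, 2 were higher and 13 lower (median -0.54). The PEA3 subfamily of ETS factors fell together. Etv5 went from 4.99, 4.85 and 4.78 RPKM to 1.05, 1.44 and 0.852, Etv4 from 1.72, 1.85 and 1.78 to 0.143, 0.479 and 0.255, and Etv1 from 1.10, 1.24 and 1.10 to 0.639, 0.685 and 0.715. Ets2 fell 2.85-fold. The call of Etv1 was lost under the other scaling (-0.19, limma adjusted p = 0.0883). The MYC family split. Myc read 45.25, 33.38 and 38.96 RPKM with DMSO and 11.92, 11.7 and 10.43 with the inhibitor, a 3.45-fold fall (-1.69 ± 0.16, limma adjusted p = 4.2e-07). Mycn read 1.44, 2.27 and 2.23 and then 7.55, 9.58 and 9.59, a 4.50-fold rise (1.74 ± 0.19, limma adjusted p = 1.53e-06). Neither gene's groups overlapped.

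Immediate early genes also moved in both directions, 5 higher and 8 lower of 16 tested. The EGR zinc finger factors fell: Egr1 read 98.31, 77.01 and 77.66 RPKM with DMSO and 20.63, 24.33 and 15.85 with the inhibitor, Egr2 fell 5.59-fold and Egr3 26.8-fold. Arc, the cytoskeletal gene induced by activity in neurons, fell 7.06-fold, with DMSO replicate 1 (14.18 RPKM) above the others (6.54 and 6.17). In contrast Fos, the AP-1 subunit, read 1.12, 1.20 and 2.16 with DMSO and 7.00, 5.71 and 5.94 with the inhibitor, a 4.17-fold rise (1.55 ± 0.15, limma adjusted p = 5.9e-07). Cyr61, a matricellular gene regulated by YAP, rose from 7.99, 2.75 and 2.79 RPKM to 22.4, 21.28 and 16.26. Fos and the Egr genes, induced together by many stimuli, thus moved in opposite directions here.

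**Figure D2:**
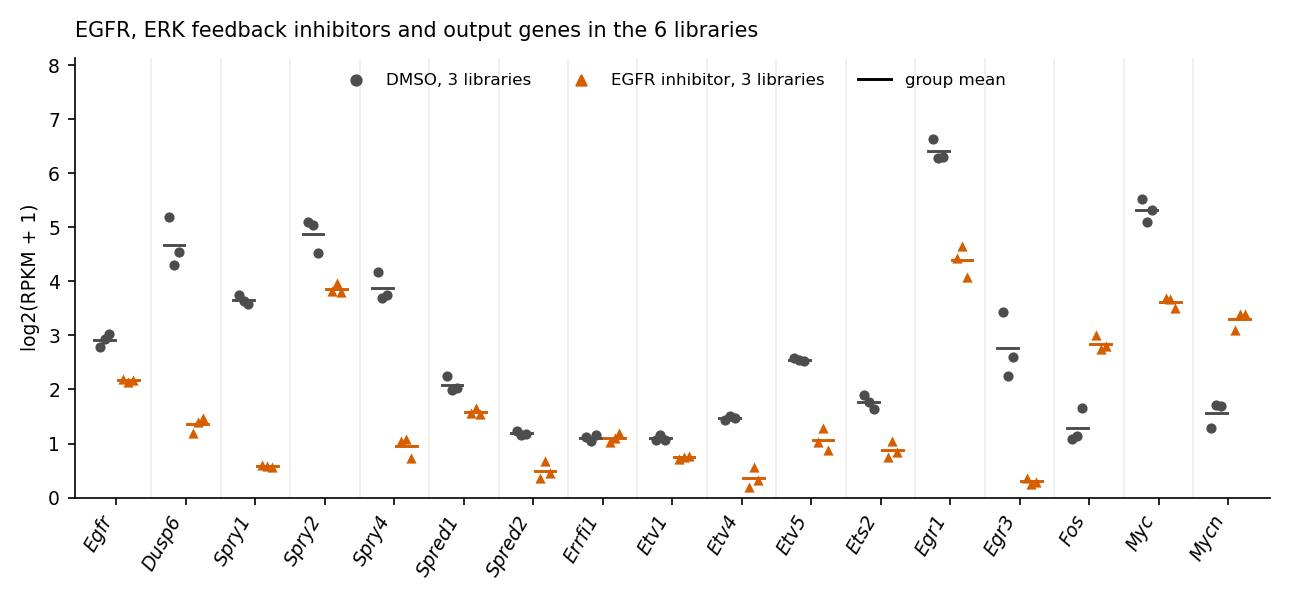
Log2(RPKM + 1) of Egfr, ERK feedback inhibitors, ETS factors and immediate early genes in each of the 6 libraries. Grey circles are DMSO, orange triangles the EGFR inhibitor and bars group means; Dusp6, Spry1 and Spry4 show the widest gaps, Errfi1 none, and Fos and Mycn are higher with the inhibitor.

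Receptors for other growth factors were read beside EGFR. Of 11 tested, 5 were higher and 1 lower (median 0.30). Ntrk2, the receptor for BDNF, of which astrocytes make a form without a kinase, read 1.28, 1.38 and 1.43 RPKM with DMSO and 6.06, 5.72 and 5.83 with the inhibitor (4.30-fold, log2 change 1.54 ± 0.12, limma adjusted p = 9.1e-08). Epha4 rose 3.44-fold and Pdgfrb, usual in pericytes, from 0.166, 0.0902 and 0.164 to 1.22, 1.24 and 1.02 RPKM. Fgfr1 rose 1.25-fold (limma adjusted p = 0.00896), while Fgfr3 (5.01 ± 0.354 RPKM with DMSO, 3.69 ± 0.0758 with the inhibitor, SD) was not called.

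Cell division genes were lower as a body. In G1, 2 genes were higher and 17 lower of 23. Ccnd1, the D cyclin that ERK turns on, read 90.08, 58.4 and 66.29 RPKM with DMSO and 1.75, 2.40 and 1.39 with the inhibitor. Ccnd2 read 46.54, 39.57 and 42.4 and then 17.93, 17.98 and 17.45, a smaller fall of 2.41-fold. The CDK inhibitors did not move alike. Cdkn1b, which encodes p27 and is a target of FOXO, rose from 12.95, 13.41 and 14.96 to 23.07, 24.53 and 28.07 RPKM (0.83 ± 0.12, limma adjusted p = 2.73e-05). Cdkn1a, which encodes p21, fell from 19.96, 19.38 and 20.11 to 8.61, 8.54 and 6.74, and Cdkn2b, which encodes p15, fell 3.58-fold. Cdkn1c, which encodes p57, was not called (2.06 ± 0.137 and 3.30 ± 0.802 RPKM, SD).

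None of 47 tested DNA replication genes was higher and 45 were lower (median -1.0). Subunits of the MCM helicase that opens DNA fell, Mcm2 from 8.67, 8.55 and 7.74 to 2.50, 3.26 and 2.34 RPKM and Mcm4 from 12.74, 11.67 and 11.64 to 3.65, 4.25 and 3.14. Pcna, the sliding clamp, fell 3.27-fold and the polymerase delta subunit genes Pold1 and Pold2 4.85-fold and 3.44-fold. Dnmt1, which copies DNA methylation onto new strands, fell 3.19-fold. Of 71 tested mitosis genes none was higher and 70 were lower (median -1.38). The largest log2 change was that of Mki67 (-2.48 ± 0.56, 6.11-fold), and Cdk1 followed a like course from 8.30, 8.55 and 7.93 to 1.13, 1.0 and 0.799 RPKM. Cenpm, a centromere protein gene, fell 6.03-fold, Ska3, of the kinetochore, 6.89-fold, and the lamin gene Lmnb1 3.28-fold. Of 18 tested genes of homologous recombination and the Fanconi pathway 15 were lower and none higher, among them Topbp1 (3.56-fold) and Chek1 (4.27-fold). Mki67 remained above 0 in every inhibitor library (8.24 to 9.41 RPKM).

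The RefSeq promoters of these genes were read for 2 known elements, since they are known from many genes of these lists. One is the cell cycle genes homology region (CHR), TTTGAA, through which the DREAM complex holds mitosis genes down. The other is an E2F site, GCGGGAA. Windows run from 250 bases before to 50 bases after the start in build GRCm38.p6, both strands were searched, and a gene counts if any of its promoters holds the letters. CHR letters stood in 42 of 64 mitosis genes with a promoter (65.6%), beside 14.0% of the 10388 genes with a promoter among those tested on RPKM or on reads. E2F letters stood in 18 of 42 replication genes (42.9%) and 13 of 26 repair genes (50%), beside 9.92% of all. Over all called genes the E2F letters stood in 13.8% of those lower and 7.20% of those higher, and the CHR letters in 15.7% and 12.2%. Below, 2 mitosis and 2 replication promoters are shown from 150 bases before to 30 after the start, with the matching letters, on either strand, in capitals. They were picked from the called members with the smallest p-values that hold the letters in this stretch. Ska3, with a smaller p-value than Bub3, also holds the CHR letters there and is not shown.
Cks1b, chr3:89418262-89418441, minus strand: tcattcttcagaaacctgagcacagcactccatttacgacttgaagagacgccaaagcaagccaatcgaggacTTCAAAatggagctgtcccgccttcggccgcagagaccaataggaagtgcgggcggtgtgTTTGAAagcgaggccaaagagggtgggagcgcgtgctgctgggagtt
Bub3, chr7:131560220-131560399, plus strand: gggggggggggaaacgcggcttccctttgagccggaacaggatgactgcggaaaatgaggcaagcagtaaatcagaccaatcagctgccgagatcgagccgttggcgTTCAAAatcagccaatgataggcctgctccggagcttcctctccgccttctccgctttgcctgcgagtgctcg
Mcm3, chr1:20820283-20820462, minus strand: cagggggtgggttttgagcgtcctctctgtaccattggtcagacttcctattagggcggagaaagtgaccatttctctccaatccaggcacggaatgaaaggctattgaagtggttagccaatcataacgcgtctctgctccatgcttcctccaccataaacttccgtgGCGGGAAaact
Uhrf1, chr17:56303187-56303366, plus strand: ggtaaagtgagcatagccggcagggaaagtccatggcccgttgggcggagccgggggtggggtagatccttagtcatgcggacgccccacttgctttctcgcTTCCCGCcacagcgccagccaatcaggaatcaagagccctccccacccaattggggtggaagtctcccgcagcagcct
Cks1b, a partner of CDK1, fell 4.38-fold and Bub3, of the spindle checkpoint, 2.15-fold. A match is a description of letters and no evidence that a factor binds there.

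Lipid synthesis genes formed another block. Of 28 tested genes of cholesterol synthesis and sterol sensing none was higher and 26 were lower (median -1.40). Hmgcs1, an early enzyme of the pathway, read 33.85, 43.81 and 42.26 RPKM with DMSO and 5.75, 5.92 and 4.34 with the inhibitor, groups that do not overlap. Later enzymes differed in size, with Cyp51 9.56-fold, Msmo1 7.59-fold, Dhcr7 6.14-fold and Sqle 3.14-fold lower. Insig1, which retains the sterol sensor in the endoplasmic reticulum, fell 8.97-fold. The transcription factors that drive the set were lower too, Srebf2 2.26-fold and Srebf1 2.48-fold. In fatty acid synthesis 2 genes were higher and 13 lower of 19. Fasn, the fatty acid synthase, went from 77.55, 107.0 and 114.9 to 17.14, 18.3 and 14.22 RPKM and Scd1, a desaturase, from 59.02, 84.06 and 88.01 to 9.69, 11.81 and 10.04. Its neighbour in function Scd2 fell 2.22-fold and the citrate lyase gene Acly 3.14-fold.

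The sterol response element TCACNCCAC stood in the promoter of 1 of 21 cholesterol genes with a window and in 1.42% of all genes, so this strict spelling of the element is rare in both. Over all called genes it stood in 29 of 2054 lower and 22 of 1292 higher. The member that holds it is Hmgcs1, shown with the letters in capitals.
Hmgcs1, chr13:119690201-119690380, plus strand: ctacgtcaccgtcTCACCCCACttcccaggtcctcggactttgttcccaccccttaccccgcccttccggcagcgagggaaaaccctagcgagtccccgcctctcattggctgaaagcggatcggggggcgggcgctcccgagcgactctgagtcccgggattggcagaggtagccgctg

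Lipid handling ran the other way in part, with 10 genes higher and 4 lower of 21 tested for export, droplets and oxidation. Abca1, which loads lipid onto apolipoproteins, read 3.33, 3.87 and 4.04 RPKM with DMSO and 9.64, 8.85 and 8.91 with the inhibitor. Apoe, the main lipid carrier of astrocytes, read 87.19, 115.7 and 112.6 and then 537.0, 520.2 and 503.6 (4.95-fold, log2 change 2.31 ± 0.30, limma adjusted p = 1.02e-05). Cpt1a, which admits fatty acids to mitochondria, rose 2.38-fold. Angptl4, a secreted inhibitor of lipoprotein lipase that fatty acids and PPARs induce, was at 0.0404, 0 and 0.0466 RPKM with DMSO and at 4.15, 3.81 and 5.36 with the inhibitor. Fabp7, the brain fatty acid binding protein, went against them, from 1011.2, 1202.1 and 1068.1 to 349.0, 364.6 and 362.5 RPKM.

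Glycolysis genes divided, 9 higher and 9 lower of 23, or 11 and 5 under the other scaling. Lower were Ldha, which makes lactate (26.11, 27.73 and 28.14 against 4.62, 4.78 and 4.95 RPKM, 5.71-fold), the ubiquitous enolase Eno1 (2.76-fold), the pyruvate kinase Pkm (3.03-fold) and Pgk1 (3.10-fold). Among the 9 higher were Aldoc (32.34, 39.8 and 46.6 against 101.5, 105.0 and 102.0 RPKM), Eno2 (3.07-fold) and Pygb, the brain glycogen phosphorylase (3.58-fold), all isoforms typical of brain. Other isoforms rose too: on recovered reads the liver phosphorylase rose 3.78-fold (voom adjusted p = 2.54e-05), while the muscle form fell 3.65-fold (voom adjusted p = 0.0048). Both were picked after their values were seen. Voom called 12 higher and 12 lower of 35 in this list. Pdk4, which closes the entry of pyruvate into the citric acid cycle, rose 4.33-fold.

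Amino acid supply genes, many under the factor ATF4, were 1 higher and 24 lower of 34 (median -0.80). Slc7a5, the carrier of leucine and other large amino acids, went from 10.32, 11.6 and 11.55 to 1.85, 1.39 and 1.61 RPKM (6.90-fold, log2 change -2.22 ± 0.25, limma adjusted p = 2.29e-06). The serine enzyme gene Shmt2 fell 3.33-fold and Shmt1 3.46-fold. Slc1a4, a carrier of serine and alanine, fell 2.90-fold, and the tRNA synthetase genes Aars and Eprs 3.46-fold and 2.06-fold. The letters TGATGNAA, the C/EBP-ATF response element that ATF4 binds, stood in 9 of 30 promoters of the list (30%) beside 2.62% of all genes, and in 2.43% of all lower and 2.48% of all higher genes. Those of Slc1a4 and Aars follow.
Slc1a4, chr11:20332684-20332863, minus strand: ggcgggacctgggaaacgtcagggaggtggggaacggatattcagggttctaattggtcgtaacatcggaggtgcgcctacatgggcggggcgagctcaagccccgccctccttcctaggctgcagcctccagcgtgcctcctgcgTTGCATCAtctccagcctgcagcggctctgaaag
Aars, chr8:111033692-111033871, plus strand: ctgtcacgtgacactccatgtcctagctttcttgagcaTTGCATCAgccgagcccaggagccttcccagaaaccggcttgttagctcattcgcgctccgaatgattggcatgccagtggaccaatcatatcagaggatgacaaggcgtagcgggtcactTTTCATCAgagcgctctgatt

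Genes that build ribosomes were lower in 44 of 45 cases and higher in none (median -0.81). They include Nop56 (18.93, 13.33 and 15.06 against 4.43, 4.50 and 4.12 RPKM), which guides RNA methylation, the pseudouridine synthase Dkc1 (3.71-fold), nucleolin, Ncl (2.18-fold), and nucleophosmin, Npm1 (2.79-fold). The ribosomal proteins themselves shifted less, 0 higher and 24 lower of 52 with a median of -0.41, which is near the median of -0.27 for genes of at least 5 RPKM. Under the other scaling the ribosomal proteins stood at 1 higher and 12 lower with a median of -0.11. The nuclear genes of oxidative phosphorylation were alike, 0 and 31 of 61 (median -0.37), or 6 and 14 (median -0.10) under that scaling. Within them the ATP synthase subunit gene Atp5b (477.0, 562.4 and 565.4 against 222.7, 222.2 and 225.0 RPKM), Cyc1 of complex III (2.46-fold) and Ndufs8 of complex I (2.39-fold) fell. Chaperones of the endoplasmic reticulum gave 2 higher and 12 lower of 23, or 7 and 4, so the balance of calls depended on the scaling (medians -0.34 and -0.10). Hspa5, the main chaperone there, fell 2.00-fold and Hsp90b1 2.17-fold.

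Higher lists lay at the lysosome and among FOXO targets. Of 37 tested lysosome and autophagy genes 21 were higher and 3 lower (median 0.53; 32 and 0 under the other scaling). The cathepsin gene Ctsf read 2.13, 2.10 and 2.06 RPKM with DMSO and 11.67, 10.54 and 9.89 with the inhibitor (5.10-fold, log2 change 1.91 ± 0.19, limma adjusted p = 5.64e-07). The membrane proteins Lamp2 and Scarb2 rose 2.10-fold and 2.76-fold, the autophagosome gene Map1lc3b 2.92-fold and Ulk1, the kinase that starts autophagy, 2.36-fold. TCACGTG, the core of the CLEAR element bound by TFEB, stood in 13 of 35 promoters of the list (37.1%) beside 6.88% of all genes, and in 7.01% of all lower and 7.89% of all higher genes. The letters are close to a palindrome, so 1 site can match on both strands. The promoters of Ctsa, which encodes a lysosomal carboxypeptidase, and Lamp1, a membrane protein of the lysosome, are shown.
Ctsa, chr2:164833623-164833802, plus strand: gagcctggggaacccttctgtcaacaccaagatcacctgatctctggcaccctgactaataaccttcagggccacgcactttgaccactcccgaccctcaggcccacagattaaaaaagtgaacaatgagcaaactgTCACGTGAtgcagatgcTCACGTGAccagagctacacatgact
Lamp1, chr8:13159011-13159190, plus strand: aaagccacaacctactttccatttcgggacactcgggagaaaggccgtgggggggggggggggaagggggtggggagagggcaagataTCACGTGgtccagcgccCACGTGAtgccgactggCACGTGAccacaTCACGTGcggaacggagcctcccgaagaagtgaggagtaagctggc

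Of 26 tested FOXO targets and genes that insulin represses, 20 were higher and 3 lower (median 0.70, and 20 and 3 under the other scaling). Txnip, which binds thioredoxin and limits glucose uptake, read 9.98, 9.02 and 10.34 RPKM with DMSO and 66.87, 59.64 and 52.66 with the inhibitor (6.11-fold). Pik3ip1, an inhibitor of PI3K, rose 3.10-fold, the mitochondrial kinase gene Pink1 3.36-fold and Foxo3 itself 2.18-fold. Against them Irs2, the insulin receptor substrate, fell 1.61-fold and the pseudokinase gene Trib2 2.52-fold. GTAAACA, a forkhead site, stood in 3 of 26 promoters of the list (11.5%) and 3.20% of all genes, and in 2.39% of all lower and 4.33% of all higher genes. That of Txnip is given.
Txnip, chr3:96557807-96557986, plus strand: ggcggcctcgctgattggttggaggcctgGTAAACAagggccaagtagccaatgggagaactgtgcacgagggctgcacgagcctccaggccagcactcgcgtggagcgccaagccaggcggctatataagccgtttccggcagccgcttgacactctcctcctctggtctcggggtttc

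The proteins that bind insulin-like growth factors in the medium parted widely. Igfbp3 read 45.83, 32.69 and 36.47 RPKM with DMSO and 1.67, 1.87 and 1.15 with the inhibitor, Igfbp2 fell 12.4-fold and Igfbp4 9.74-fold. Igfbp5 went from 4.03, 4.90 and 4.90 to 32.94, 32.63 and 29.09 RPKM (6.85-fold, log2 change 2.54 ± 0.16, limma adjusted p = 6.41e-09). Stc2 and Stc1, secreted stanniocalcins that act on IGF release, fell 10.5-fold and 6.30-fold. Of 8 tested genes of the axis 2 were higher and 5 lower.

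Genes of astrocyte structure and metabolism were 18 higher and 5 lower of 28 (median 0.79). Gfap, the intermediate filament protein, read 3.12, 3.56 and 3.75 RPKM with DMSO and 63.84, 71.54 and 62.78 with the inhibitor. The secreted chaperone Clu read 2.82, 3.0 and 2.98 and then 28.8, 30.19 and 22.61, and the protease inhibitor Cst3 rose 3.73-fold. Glul, the glutamine synthetase, rose 1.63-fold and Mlc1, a membrane protein of astrocyte endfeet, 2.23-fold. Lower were Nes, the filament protein of progenitors (120.2, 103.9 and 108.2 against 26.75, 27.84 and 20.41 RPKM), and Dio2, which makes active thyroid hormone in astrocytes (4.47-fold). Vim, a filament shared by both stages, rose 1.34-fold. The astrocyte marker sum given above, which shares genes with this list, was higher in the same libraries.

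Transporters and channels were 13 higher and 6 lower of 25. The water channel Aqp4 read 6.73, 7.06 and 7.61 RPKM with DMSO and 27.43, 25.64 and 27.55 with the inhibitor, and the gap junction gene Gja1 read 3.73, 4.40 and 4.43 and then 20.07, 18.04 and 21.69. The glutamate carriers differed. Slc1a2, the later of them in development, rose 1.95-fold (0.80 ± 0.19, limma adjusted p = 0.00257). Slc1a3 (15 ± 1.0 RPKM with DMSO, 16.5 ± 0.735 with the inhibitor, SD) was not called, with a log2 change of 0.13 ± 0.14. The potassium channel gene Kcnj10 was not called either (7.78 ± 1.80 and 6.57 ± 0.441 RPKM). The GABA carrier gene Slc6a11 fell 2.14-fold. Under the other scaling Slc1a3 was called higher (0.46, limma adjusted p = 0.0151) and Kcnj10 changed sign (0.11, limma adjusted p = 0.717).

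**Figure D3:**
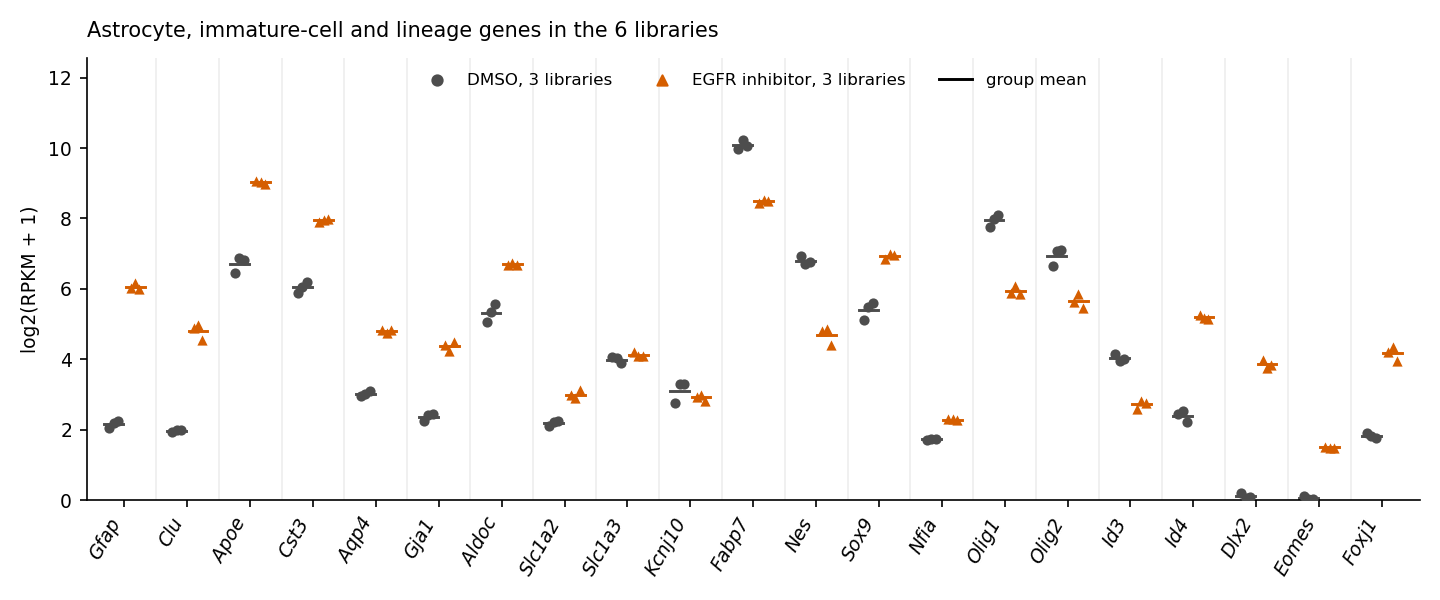
Log2(RPKM + 1) of astrocyte genes, progenitor genes and lineage factors in each of the 6 libraries. Grey circles are DMSO, orange triangles the EGFR inhibitor and bars group means; Gfap, Clu, Id4, Dlx2 and Foxj1 are higher in every inhibitor library, Fabp7, Nes, Olig1, Olig2 and Id3 lower, and Slc1a3 and Kcnj10 lie close.

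Among factors that set glial fate 13 were higher and 7 lower of 31. Sox9, needed for the start of gliogenesis, read 33.8, 43.76 and 47.67 RPKM with DMSO and 113.4, 127.5 and 123.3 with the inhibitor, and its partner Nfia rose 1.68-fold. Zbtb20, an astrocyte factor, rose 3.29-fold. The Id genes, inhibitors of basic helix-loop-helix factors and targets of BMP, separated: Id4 read 4.41, 4.75 and 3.65 and then 37.18, 35.19 and 34.71 (8.36-fold), Id3 fell 2.75-fold, and Id1 and Id2 were not called. The oligodendrocyte lineage factors fell, Olig1 from 217.1, 251.3 and 275.5 to 58.32, 66.27 and 57.34 RPKM and Olig2 from 100.1, 133.1 and 137.0 to 48.26, 56.89 and 43.22.

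Proneural and interneuron genes were 18 higher and 1 lower of 21 tested (median 1.16), out of 44 listed. Of the 21, 13 were under 1 RPKM in every DMSO library, and all 13 were higher. None passed the filter through the inhibitor libraries alone, but the count and the median are a description only. Of the other 8, 5 were higher and 1 was lower. Insm1, a zinc finger gene of newly made neurons, read 0.816, 1.69 and 1.26 RPKM with DMSO and 20.56, 23.91 and 21.81 with the inhibitor. Both programmes of forebrain neurogenesis were represented. For the ventral one Dlx2 stood at 0.142, 0.0448 and 0.0727 and then at 14.83, 12.49 and 13.36 RPKM. For the dorsal one Neurog2 went from 0.127, 0.12 and 0.0974 to 5.02, 4.47 and 5.21 RPKM and Eomes from 0.0798, 0.0189 and 0.0153 to 1.86, 1.79 and 1.82. Tubb3, the neuronal tubulin, rose from 0.164, 0.142 and 0.172 to 3.52, 2.37 and 3.21. Progenitor factors Pax6 (2.57-fold) and Nr2e1 (2.30-fold) rose with them, while Hes1, the Notch target that holds progenitors, fell 2.34-fold.

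In Notch signalling 7 genes were higher and 3 lower of 16, with the receptor gene Notch2 2.22-fold higher, the ligand Dll3 3.57-fold higher and the ligand Jag1 4.29-fold lower. Hes5, another target, read 3.82, 12.95 and 8.56 RPKM with DMSO and 16.25, 18.06 and 21.54 with the inhibitor, and its call (limma adjusted p = 0.0346) was lost without DMSO replicate 1 (log2 change 0.76, limma adjusted p = 0.200) and without DMSO replicate 3 or any 1 of the inhibitor libraries (limma adjusted p 0.0522 to 0.099). In Wnt signalling the receptor genes separated, Fzd1 falling 3.76-fold and Fzd2 and Fzd8 rising 2.40-fold and 2.67-fold, with the secreted inhibitors Sfrp1 (2.74-fold) and Dkk3 (4.50-fold) higher. In BMP signalling Bmp4 was at 0.0442, 0.147 and 0.068 RPKM with DMSO and at 1.13, 1.30 and 1.28 with the inhibitor, whereas Bmp7 went from 0.885, 0.96 and 0.923 to 0.0784, 0.104 and 0.0671. Ctgf, a YAP and TGF-beta target, read 1.76, 0.833 and 0.675 and then 19.71, 20.71 and 13.26 RPKM. None of the 4 Hedgehog genes tested on RPKM was called by limma, among them the receptor Ptch1 (2.96 ± 0.59 and 3.37 ± 0.097 RPKM, SD). Of these 4 genes 1 had an unadjusted limma p below 0.05. Voom tested 13 Hedgehog genes, 3 higher and 4 lower (median -0.17). Named after their values were seen, the coreceptor gene Boc rose 2.96-fold (voom adjusted p = 6.75e-10), the effector Gli2 rose 2.15-fold (9.51e-06) and Hhip, which binds and blocks the ligands, fell 9.99-fold (1.38e-07).

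Genes of adhesion and the cytoskeleton moved in both directions. Of 12 tested collagens, laminins and integrins 8 were lower and 2 higher, among them Itgb1, the common integrin subunit (11.78, 11.24 and 11.41 against 5.28, 4.64 and 4.34 RPKM), Itgav (2.95-fold lower) and Itga5 (3.42-fold lower). Voom tested 41 of this list on reads, 14 higher and 17 lower (median -0.20). Higher there, and named after their values were seen, were the laminin chain gene Lama2 (3.23-fold) and the collagen gene Col27a1 (3.97-fold). Of 45 actin genes 23 were lower and 8 higher, or 17 and 12 under the other scaling. Lgals1, a galectin at the cell surface, fell 9.62-fold. The ERM proteins, which tie actin to the membrane, parted: moesin, Msn, fell 2.40-fold and radixin, Rdx, 1.6-fold, while ezrin, Ezr, which marks the fine processes of astrocytes, rose from 2.15, 1.46 and 1.78 to 5.33, 4.69 and 4.80 RPKM. In the matrix 6 were higher and 12 lower of 29, or 10 and 8 under the other scaling, and by voom 19 were higher and 18 lower of 49. Fbln2 fell 15-fold and the membrane protease Mmp15 7.14-fold, while the proteoglycan Bgn rose from 0.295, 0.584 and 0.493 to 4.71, 4.92 and 4.71 RPKM. The hyaluronan receptor Cd44 fell 4.03-fold.

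Signals between cells changed as well. The vascular growth factor Vegfa read 4.37, 5.66 and 5.38 RPKM with DMSO and 1.02, 1.51 and 1.31 with the inhibitor. The presynaptic organizers Nptx1 and Nptx2 fell 5.88-fold and 4.51-fold, and the synapse-promoting Thbs1 rose 8.72-fold. Among G-protein coupled receptors, 14 higher and 5 lower of 26, Adrb1, the receptor for noradrenaline, fell 4.75-fold, and Cxcr4 (0.772, 0.476 and 1.16 against 5.91, 5.25 and 7.11 RPKM), S1pr1 (2.93-fold) and S1pr3 (6.26-fold) rose. Of the 14 higher receptors 2 passed the filter only through the inhibitor libraries, so this count is a description only. Of 21 reactive astrocyte genes 11 were higher and 4 lower: Ggta1 rose 10.9-fold and Osmr, the oncostatin receptor, from 0.0618, 0.0537 and 0.0455 to 0.923, 0.92 and 0.816 RPKM. Of the 21, 8 were under 1 RPKM in every DMSO library, and 6 of those 8 were higher. Of the other 13, 5 were higher and 3 lower. The complement gene C4b went from 0.122, 0.0774 and 0.173 to 3.78, 4.43 and 3.41, while the class I antigen gene H2-K1 fell 2.85-fold. In the circadian clock Bhlhe40, which ERK and other stimuli induce, fell from 38.95, 27.54 and 31.2 to 6.46, 6.72 and 7.57 RPKM, and Cry2 rose 3.03-fold. The noncoding RNAs Neat1 and Malat1, kept in the nucleus, rose 4.44-fold and 1.86-fold.

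Motile cilium genes were measured mainly through reads. Of 89 listed, 86 were in the table and 19 passed the RPKM filter, 18 of them higher and none lower. Of these 19, 16 were under 1 RPKM in every DMSO library and all 16 were higher; none passed the filter through the inhibitor libraries alone, but the count is a description only. Multiplying RPKM by gene span gave whole reads for 99.0 to 99.3% of low values. Of 79 cilium genes that voom tested on those reads, 75 were higher and 1 lower (median 2.23), and the libraries of the groups did not overlap for 73. Among all genes tested on RPKM they did not overlap for 50.3%. All 10 axonemal dynein heavy chains tested and all 16 Cfap genes were higher. Voom needed at least 10 reads in at least 3 libraries of this experiment. Among the members that met this through the inhibitor libraries alone are Pifo, with 16 reads over the DMSO libraries, and Dnah7a, with 11. Other members did so too, some with 12 to 18 reads over the DMSO libraries, and their number was not counted. These counts and the median are therefore a description only. Dnah6, a dynein chain, took 6.79, 7.35 and 6.81 CPM with DMSO and 53.9, 60.1 and 50.3 with the inhibitor (7.84-fold, log2 change 2.96 ± 0.20, voom adjusted p = 1.55e-12). The summed level of the 79 genes was 526 to 554 CPM with DMSO and 1680 to 1930 with the inhibitor. The master factor Foxj1 read 2.73, 2.56 and 2.43 RPKM and then 17.48, 19.33 and 14.62 (6.67-fold, log2 change 2.34 ± 0.20, limma adjusted p = 1.54e-07), and its partner Rfx3 rose 2.65-fold. The exception was Mns1 (56.1 and 30.7 CPM, voom adjusted p = 1.08e-05), a gene first known from meiosis. Dnah6 and Mns1 were picked out after their values were seen. Ependymal cells carry the same genes. The 5 ependymal and choroid plexus markers summed to 12.9 to 15.3 CPM with DMSO and 80.8 to 105.0 with the inhibitor, with Ttr, the choroid plexus marker, at 0 in all DMSO libraries. Most of this sum is Foxj1 (mean 12.1 and 80.5 CPM), which like Ccdc153 is also in the cilium list. Of the other markers, Folr1 averaged 0.311 and 1.99 CPM, Tmem212 0.597 and 2.16, and Ttr 0 and 0.403. The part of ependymal cells in the result was not tested.

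**Figure D4:**
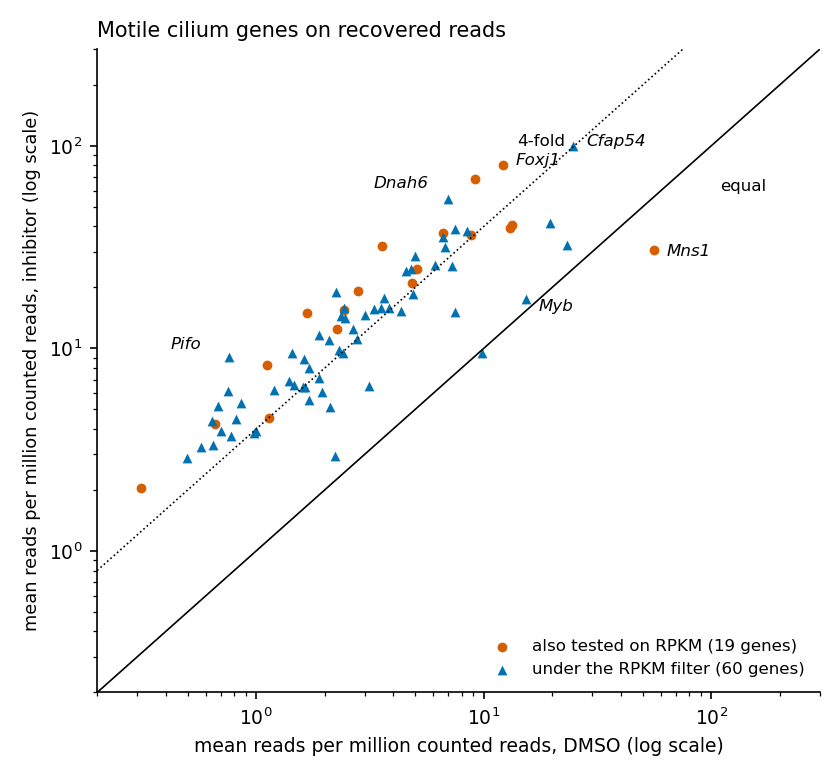
Mean CPM (reads scaled to the library total) of 79 motile cilium genes in DMSO (x axis) and inhibitor libraries (y axis), both on log scales, for 19 genes also tested on RPKM (orange circles) and 60 under its filter (blue triangles). The solid line marks equal levels and the dotted line a 4-fold rise; most genes lie near the dotted line and Mns1 lies under the solid one.

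Long genes fall under an RPKM filter that divides by the whole gene, and 461 genes of the lists that failed it could be tested by voom, 216 higher (46.9%) and 97 lower (21.0%). Over all 5485 genes that voom alone tested, 34.7% were higher and 17.1% lower. Some genes met voom's read filter through 1 group alone, such as the neuron marker Rbfox3, with 8 reads over the DMSO libraries. Their number was not counted, so these shares are a description only. The following were chosen after their values were seen. Tnr, a matrix protein of perineuronal nets, took 46.0, 51.7 and 41.9 CPM with DMSO and 388.0, 387.0 and 397.0 with the inhibitor (8.39-fold, log2 change 3.08 ± 0.10, voom adjusted p = 7.32e-19). Grm5, the metabotropic glutamate receptor of young astrocytes, fell from 158.0, 196.0 and 169.0 to 25.1, 19.3 and 23.9 and its relative Grm3 3.72-fold. Hmga2, a chromatin protein of growing embryonic cells, had 619 reads over the DMSO libraries and 10 over the inhibitor libraries. The synapse-maturing factor Chrdl1 fell 8.32-fold, the mitochondrial folate enzyme Mthfd1l 7.61-fold and the hexokinase Hk2 6.10-fold. The ventral homeobox gene Dlx6 had 0 reads with DMSO in all 3 libraries and 3.61, 3.0 and 4.16 CPM with the inhibitor, and Gad2, which makes GABA, rose from 3.63, 6.75 and 4.13 to 32.3, 45.5 and 47.1. The thyrotropin receptor gene Tshr rose 12.5-fold and Prdm16, a radial glia factor, 3.43-fold. TEAD factors pair with YAP, and Tead4 went from 2 reads in all to 212. Of the genes chosen here, Dlx6 and Tead4 met voom's read filter through the inhibitor libraries alone, and Hmga2 through the DMSO libraries alone.

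One of these transcripts carries microRNAs. Mir99ahg, a noncoding gene on chromosome 16 (77236317 to 77773427 in the annotation used here, plus strand), took 57.4, 54.7 and 50.9 CPM with DMSO and 199.0, 226.0 and 230.0 with the inhibitor (4.02-fold, log2 change 2.01 ± 0.10, voom adjusted p = 4.97e-15). Its span holds Mirlet7c-1 (77599657 to 77599750), whose mature product is given with its seed, bases 2 to 8, in capitals. A well known target of the let-7 family is Hmga2. These libraries do not measure mature microRNAs, and reads at the hairpin cannot be told from those of the host.
mmu-let-7c-5p, chr16:77599672-77599693: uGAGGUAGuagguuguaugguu

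Markers of other cells were checked, since the panned culture could hold them. The 6 markers of oligodendrocyte precursors summed to 928 to 1170 CPM with DMSO and 445 to 537 with the inhibitor, and none was at 0. This sum holds Olig1 and Olig2. In the wider list of precursor genes 5 were higher and 4 lower of 16 tested (median 0.19), and by voom 11 were higher and 5 lower of 21 (median 0.44). Pdgfra, their receptor, was not called (1.5 ± 0.0232 and 2.10 ± 0.231 RPKM, SD), and Sox10 was not called either. The 5 oligodendrocyte markers summed to 10.9 to 13.8 and 42.4 to 51.5, and the 6 neuron markers to 29.2 to 34.9 and 53.8 to 63.0. Snap25, which made most of the neuron sum with DMSO, fell from a mean of 29.3 to 17.8 CPM (voom adjusted p = 0.000751). The rise came from other neuron markers, among them Tubb3 and Rbfox3 (mean 0.386 and 6.84 CPM). The 7 microglia markers summed to 2.78 to 5.36 and 11.6 to 25.3 with Tmem119 at 0 in all 6 libraries, and Cd68 (2.35-fold) and Lyz2 (4.64-fold) rose. In the wider list of microglia and macrophage genes 5 were higher and 2 lower of 10 tested (median 0.51). Of these 10, 7 were under 1 RPKM in every DMSO library. The 4 endothelial markers summed to 1.82 to 4.74 and 0 to 0.515, with Cldn5 at 0 throughout. The 5 mural and fibroblast markers summed to 33.6 to 51.9 and 47.7 to 64.0. The neuron and microglia sums rose, as did most called proneural and microglial genes above. The precursor sum fell, as did Olig1 and Olig2 within it, while more genes of the wider precursor list were higher than lower. The part of other cell types in those results was not tested.

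The P53 inhibitor experiment, with 3 libraries and 3 DMSO libraries of its own, was used to test where the response differed from that to another inhibitor. Of the same 13850 genes 25 were called there (0.181%). The difference between the 2 responses was called for 4129 genes (29.8%), 1832 higher and 2297 lower for the EGFR inhibitor. It was called for 70 of 71 mitosis genes, 44 of 47 replication genes, 26 of 28 cholesterol genes, 9 of 14 ERK feedback genes, 24 of 26 FOXO targets and 17 of 19 cilium genes. The medians of these lists with the P53 inhibitor were 0.20, 0.18, 0.13, 0.12, -0.02 and -0.02. A few genes were called in both and in opposite directions: Txnip fell with the P53 inhibitor (-1.84, limma adjusted p = 0.0228) and so did Miat (-1.27, limma adjusted p = 0.00926), a nuclear noncoding RNA that rose 15.8-fold with the EGFR inhibitor. Mfsd2a, the carrier of lipid-bound docosahexaenoic acid, fell in both (-1.01 and -1.04). Targets of P53 itself were 3 higher and 8 lower of 27 with the EGFR inhibitor (median -0.23), or 5 and 5 (median 0.01) under the other scaling. Ckap2 (5.50-fold) and Gtse1 (4.84-fold), among those lower, act in mitosis.

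**Figure D5:**
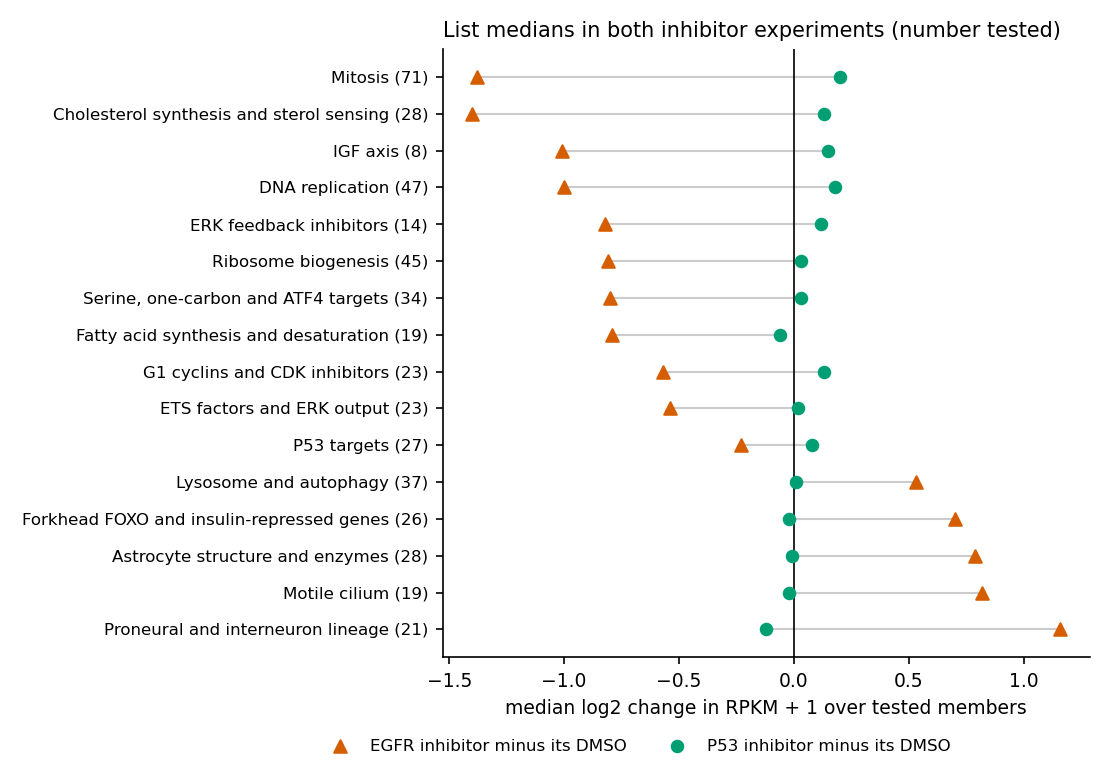
Median log2 change in RPKM + 1 (x axis) over the tested members of 16 lists, with their number in brackets, for the EGFR inhibitor (orange triangles) and the P53 inhibitor (green circles), each against its own DMSO libraries. The P53 inhibitor medians lie from -0.12 to 0.20 and those of the EGFR inhibitor from -1.40 to 1.16.

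Of 219 genes named above with their values, 101 overlap another annotated gene, and since it is not given here whether reads were counted by strand, their reads cannot be told from those of the neighbour. They include Egfr, Spry1, Spry4, Ccnd1, Ntrk2, Hmgcs1, Slc7a5, Nop56, Txnip, Gfap, Id4, Olig1, Eomes, Aqp4, Mki67, Bmp4 and Tubb3.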

How the data were processed

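RNA-seq libraries of immunopanned mouse astrocytes were deposited by the authors as 1 table of RPKM for 54429 genes in 25 libraries. Per the submitters' processing notes, STAR, HTSeq, edgeR, limma and GRCm38 were used, with roles and versions not given. Tested on the values, the deposited RPKM divide by the whole gene span, which lowers long genes against short ones.

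Groups came from the labels. Genes with at least 1 RPKM in at least 2 of 25 libraries were tested with limma 3.58.1 in R 4.3.3 on log2(RPKM + 1), with 9 group means, empirical Bayes with trend and robust options and Benjamini-Hochberg adjustment; a call is an adjusted p below 0.05. The script was tested on simulated data. Alternatives were a pseudocount of 0.1 RPKM, no filter or a filter of 5 RPKM, 2 scalings by median of ratios, leaving out mitochondrial genes or 1 library, the 6 libraries alone, a replicate block, and voom on reads recovered from RPKM and span (at least 10 reads in at least 3 libraries). Recovered reads came out whole within 0.1 for 99.0 to 99.3% of values up to 20 reads. CPM values use the recovered totals, 5766602 to 8220799 per library.

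Named genes are up to 10 in each direction with the largest change, up to 6 of each list with the smallest p-values, and a list of key genes; others are said to be chosen after their values were seen. The comparison and the lists were chosen with earlier results of these data known. Promoters and the microRNA are RefSeq sequences in GRCm38.p6, matched by symbol. Some members of the lists are not reported here by name.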

Additional observations from a re-analysis of the deposited data

How the results depend on the processing

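Of 5337 genes called, counts moved by over 1.5 times in total or in 1 direction under 5 settings. They were 2069 with a filter of 5 RPKM (670 higher, 1399 lower, of 3995 tested, fewer genes), 8512 by voom on recovered reads (4265 higher, of 15403) and, with no filter, 4129 higher of 35203. Scaling on genes of 5 RPKM, added after the data were seen, gave 3940 higher and 1713 lower. With a replicate block in the 6 libraries 3502 were called (1412 higher), against 5010 in those libraries without it. Deviations from the group mean correlated at -0.008, 0.037 and -0.035 between libraries with the same number, over 2354 genes. Between libraries with other numbers they correlated at -0.09 to 0.117. With 3 libraries per group this cannot decide whether libraries with the same number shared a culture or preparation, and the labels do not say. Leaving out 1 library gave 4565 to 4823 calls. The difference from the P53 inhibitor, 4129 genes, was 1638 (560 higher, 1078 lower) with the 5 RPKM filter and 3529 to 3918 without 1 library. Errfi1, at 0.00 in the reported fit (0.04 without inhibitor replicate 1), took the opposite sign with a pseudocount of 0.1 RPKM (-0.00), without inhibitor replicate 3 (-0.04), without DMSO replicate 2 (-0.03) and by voom (-0.01), and Kcnj10 did under the added scaling (0.11). The cause was not tested. Beyond the pseudocount and filters, depth limits genes of few reads, such as Dlx6 and Tead4.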

Other observations

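The response differed with gene length. Genes tested by voom on recovered reads were divided by span into 5 groups of equal size. The group with the longest spans (67110 to 2960900 bases) had 37.3% called higher and 27.6% lower (median log2 change 0.10), and the shortest (57 to 4114 bases) had 20.7% and 20.3% (median 0.03). The groups between had medians of -0.02 to 0. Other properties that go with span, such as the number of reads per gene, were not examined here, and no test of this difference was made.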
